A study of Mus musculus with 18 samples.

Results

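The 4 mouse Notch receptor genes (Notch1, Notch2, Notch3 and Notch4) and 5 genes for their ligands (Dll1, Dll3, Dll4, Jag1 and Jag2) were followed across thymus cells of mice given an antibody against the ligand DLL4. The 9 genes were taken by name from the array's own gene annotation, and each had at least 1 probe. They were measured by 19 probes, out of 43426 probes that stood for 25589 distinct names. RNA came from C57BL/6 mice 2 weeks after the injection of anti-DLL4 or of an isotype control antibody, was amplified in 2 rounds and was read on 18 single-colour Agilent arrays, 1 per sample. Total thymocytes gave 3 anti-DLL4 and 4 isotype samples. DN cells, sorted as negative for CD4 and for CD8, gave 3 anti-DLL4 and 3 isotype samples. DN1 cells, the DN subset that carries CD44 and lacks CD25, gave 3 anti-DLL4 and 2 isotype samples. The study's text speaks of 4 animals per antibody and of 3 isotype thymocyte samples, whereas the labels give 4, and all 4 were used. No source used here ties a sample to an animal or gives an age, so p-values measure the spread between these samples, which may be partly technical.

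Notch receptors are single-pass membrane proteins that bind ligands of the Delta-like and Jagged families on neighbouring cells. Ligand binding leads to cleavage of the receptor by an ADAM protease and then by gamma-secretase, and the freed intracellular domain enters the nucleus, where it joins the DNA-binding protein RBPJ and a Mastermind co-activator. In the thymus, NOTCH1 on incoming progenitors is engaged by DLL4 on thymic epithelial cells, a signal needed for T-cell rather than B-cell fate, and NOTCH3 is known from the pre-T-cell stage. An antibody to DLL4 acts on the protein and leaves the gene intact, so the Dll4 transcript is no check of the treatment. In RNA from a mixed population, fewer cells of a type and less RNA per cell cannot be told apart.

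The probes are 60-base sequences, and for several of these genes the outcome turned on which probe was read, so the stretches that tell the probes apart are given first, 5′ to 3′, as the files hold them. Positions are those of the mm8 build, per the files. Exon and UTR annotation of that build was not used here. The 2 Notch3 probes share 40 bases, and each has 20 of its own. A_51_P220163 lies at chr17:31849629-31849688 and A_51_P220162 at chr17:31849609-31849668, both on the minus strand.
Notch3 A_51_P220163, bases before the shared stretch: ttgttctcttggctcagcct
Notch3 A_51_P220162, bases after the shared stretch: acctggtcacagtcctttgt

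The 2 Dll3 probes share 32 bases, and each has 28 of its own. A_51_P504496 lies at chr7:28002532-28002591 and A_51_P504494 at chr7:28002504-28002563, both on the minus strand. They are shown because, unlike the Notch3 pair, they did not follow each other across arrays.
Dll3 A_51_P504496, bases before the shared stretch: acctccccctaccgactggagactcttt
Dll3 A_51_P504494, bases after the shared stretch: taacctagtttttctcatctccccagag

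Of the Notch1 probes, 2 begin alike and differ in a run of G, in capitals in the first 30 bases of each. A_51_P508510 lies at chr2:26281261-26281319, next to the third Notch1 probe, A_52_P183088, at chr2:26281319-26281378, both on the minus strand.
Notch1 A_51_P508510: ggcactaGGGGaaaaacatatctgttccaa
Notch1 A_66_P140981: ggcactaGGGaaaaacatatctgttccaag
Notch1 A_52_P183088: tatgtacttttattttccacagaaacactg

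The 3 Dll4 probes have different sequences, of which the first 30 bases are shown. A_51_P384398 lies at chr2:119027024-119027083 and A_51_P384402 at chr2:119026484-119026543, both on the plus strand.
Dll4 A_66_P101847: cgagaccaaccttgaagccgattttcaaaa
Dll4 A_51_P384398: gcactggcctttctacattttataacatta
Dll4 A_51_P384402: tttgcccagactccatcctcacagctgggc

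Both Dll1 probes carry 1 and the same sequence, which begins gattactatgagccagtctttccttgaact, so they repeat a measurement and are not separate evidence. The same holds for the 2 Jag2 probes and for 2 of the 3 Notch4 probes (A_51_P195875 and A_66_P127068). In these 3 pairs the deposited positions of the A_66 probes differ from those of the A_51 probes of equal sequence, so no position is given for A_66 probes. A_51_P306017 of Dll1 lies at chr17:15072622-15072681 on the minus strand.

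Values are levels, that is, log2 of the processed Cy3 signal on an array less the 75th percentile of its spots, controls left out. A level of 0 is the 75th percentile of that array, and levels of different probes are not comparable. Differences between groups are given in log2 units relative to the median of all tested probes, with the standard error of a limma model over all 18 arrays, and a call means a p under 0.05 after Benjamini-Hochberg adjustment. The p-values test the difference before this median is subtracted. In DN cells, Notch1 A_52_P183088 is given as -1.83 and was tested as -2.47. Notch3 A_51_P220162 is given as -2.45 and was tested as -3.1, and Dll1 A_51_P306017 is given as 4.81 and was tested as 4.16. The median of all tested probes, against which each difference is given, was -0.42 in thymocytes, -0.65 in DN cells and -0.03 in DN1 cells. Array strength, the 75th percentile itself, ranged 16.5-fold over the series, and all 3 anti-DLL4 DN arrays (741.3 to 1076.8) were brighter than the isotype DN arrays (260.2 to 675.5). Between 59.9% and 84.0% of spots per array were well above background. The sorting markers did not follow the labels in full: Cd8b1, a chain of CD8, had levels of 3.78, 4.09 and 3.64 in anti-DLL4 DN cells, against 6.82, 6.96 and 7.14 in isotype DN cells, and 1.59 to 4.96 in anti-DLL4 DN1 cells and 6.35 and 6.59 in isotype DN1 cells, against 7 to 9.95 in all thymocyte arrays. Il2ra, which encodes CD25, had levels of 0.02 to 0.49 in anti-DLL4 DN1 cells, against 0.63 to 1.08 in anti-DLL4 DN cells. It had -2.60 and -0.30 in isotype DN1 cells, against 0.20 to 1.97 in isotype DN cells, so DN1 arrays lay below DN arrays of that antibody. Cd44 had 3.07 and 2.40 in isotype DN1 cells, against -0.22 to 0.83 in isotype DN cells. With anti-DLL4 it overlapped, at 1.59 to 2.34 in DN1 cells and 1.66 to 2.09 in DN cells. Cd8a, the other CD8 chain, had 2.22 to 3.79 in isotype DN cells and -1.46 to 1.40 in anti-DLL4 DN cells. All thymocyte arrays had 5.56 to 7.84. Cd4 had -0.75, -2.68 and -3.29 in isotype DN cells, against -3.34 to -2.43 in isotype thymocytes. The groups overlapped, so this Cd4 probe did not separate them. With anti-DLL4, Cd4 had -4.28 to -3.53 in DN cells, against -3.32, -3.25 and 0.72 in thymocytes. The sorted populations are called by their labels below.

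In DN cells, anti-DLL4 samples had lower scaled levels of Notch1 and Notch3 and higher ones of Dll1 than isotype samples, and Dll4 depended on the probe. The Notch1 call was lost in 18 of 28 other settings. Of the 19 probes, 6 were called, 3 of them higher and 3 lower, where 3.72% of all 34241 tested probes were called (2.33% higher, 1.39% lower). Among the higher calls, Dll4 A_66_P101847 was well above background in the anti-DLL4 arrays only and entered the test through them. Dll1 A_51_P306017 was well above background on 1 isotype DN array and also needed the anti-DLL4 arrays to enter the test. The 6 probes belonged to 4 genes, and 12 of the 19 had an unadjusted p under 0.05, as did 28.8% of all tested probes. The arrays of the groups did not overlap for 5 member probes that were higher and 8 that were lower with anti-DLL4, where 9.67% and 21.7% of all tested probes were so separated.

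Notch3, the receptor best known at the pre-T-cell stage, had the highest levels of any group in isotype DN cells. Probe A_51_P220162 read 1.74, 3.65 and 1.00 in anti-DLL4 DN cells, against 4.37, 5.73 and 5.58 in isotype DN cells. All 3 anti-DLL4 arrays lay below all 3 isotype arrays, though anti-DLL4 replicate 2 came within 1 unit of isotype replicate 1. The relative difference was -2.45 ± 0.70 (adjusted p = 0.0229), and the overlapping probe A_51_P220163 gave -2.28 ± 0.71 (adjusted p = 0.0331). Those 2 closest arrays are the only DN arrays of both antibodies on 1 slide, and within that slide the relative differences were 0.21 and 0.45, so Notch3 was not lower than the median probe there. Before scaling, the processed signals of A_51_P220162 overlapped. They were 2970.3, 13529.5 and 1484.1 in anti-DLL4 DN cells, against 5384.7, 17960.1 and 32325.7 in isotype DN cells. The level of this probe was lower on brighter arrays (Pearson's r = -0.56 over 18 arrays, as a description).

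Notch1, the receptor that drives T-lineage commitment, was also lower in anti-DLL4 DN cells. Probe A_52_P183088 read -0.42, 1.08 and -1.02 in anti-DLL4 DN cells, against 2.59, 1.94 and 2.54 in isotype DN cells, again without overlap. Its relative difference of -1.83 ± 0.65 passed the threshold narrowly (adjusted p = 0.0481). The other Notch1 probes gave nearly the same size, -1.85 ± 0.78 and -1.86 ± 0.76, and did not pass (adjusted p = 0.0807 and 0.0753). These are the 2 probes that begin alike. Their levels followed each other with r = 1.00 and differed by at most 0.34, so they nearly repeat a measurement. Within the shared slide the 3 probes gave -0.19, -0.58 and -0.35. Before scaling, the processed signals of A_52_P183088 overlapped. They were 664, 2271.9 and 366.7 in anti-DLL4 DN cells, against 1563.9, 1292.1 and 3923.6 in isotype DN cells. The level of this probe was lower on brighter arrays too (Pearson's r = -0.52 over 18 arrays, as a description).

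**Figure D1:**
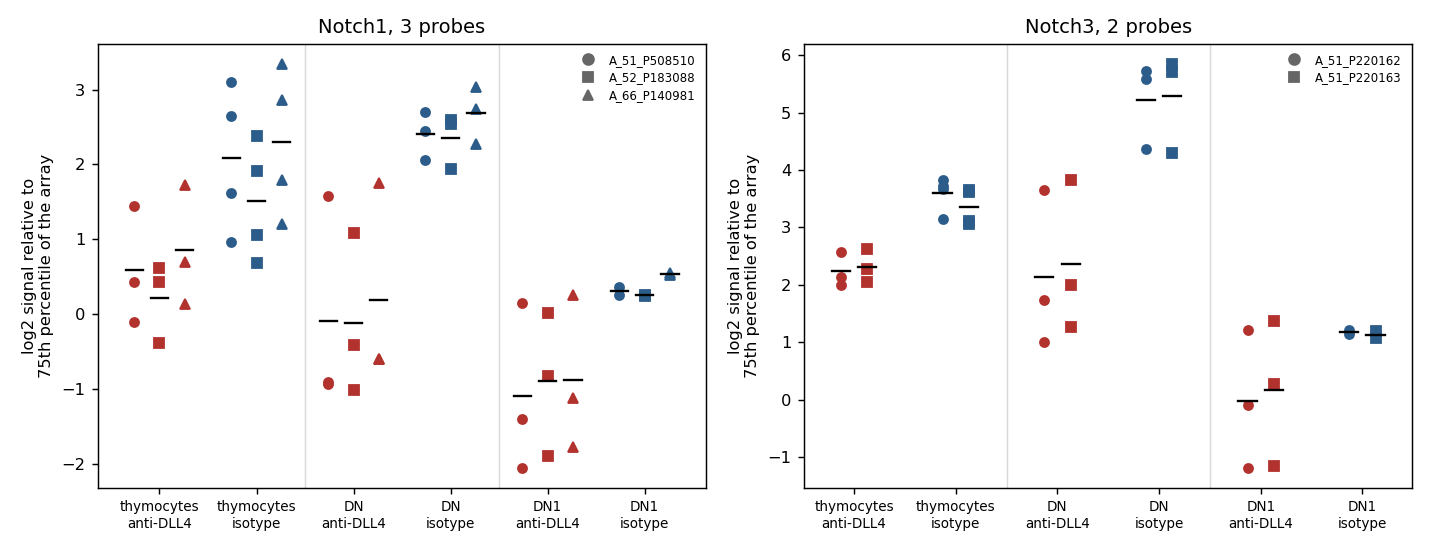
Levels of the Notch1 probes (left) and Notch3 probes (right) on each array (log2 signal relative to the array's 75th percentile), by population and antibody, anti-DLL4 in red and isotype in blue. Marker shape gives the probe, every spot shown was well above background, and black bars are group means. Notch3 was highest in isotype DN cells and lowest in DN1 cells of either antibody, and the 3 anti-DLL4 DN arrays of both genes lie below the isotype DN arrays.

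Dll1, a Delta-like ligand that can activate Notch receptors, rose in DN cells. Probe A_51_P306017 read -1.41, 0.61 and -1.78 in anti-DLL4 DN cells, against -4.16, -5.30 and -5.60 in isotype DN cells. On isotype replicates 2 and 3 the spot was not well above background, so the size of the difference rests in part on values at the detection limit. The relative difference was 4.81 ± 0.87 (adjusted p = 0.0156), and the second probe of that sequence gave 4.96 ± 1.08 (adjusted p = 0.0376). The first probe was well above background on 1 isotype array, so it met the filter of 2 arrays only with the anti-DLL4 arrays. Its p is therefore no separate support for a rise. The second probe was well above background on 2 isotype arrays. On the shared slide the relative differences were 5.70 and 5.59.

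Dll4, the ligand that the antibody binds, depended on the probe. A_66_P101847 read -2.47, -2.19 and -2.90 in anti-DLL4 DN cells, against -7.16, -5.90 and -7.37 in isotype DN cells, where no array had it well above background. The fitted relative difference of 4.93 ± 0.91 (adjusted p = 0.0165) is therefore no measured size. The probe entered the test through the anti-DLL4 arrays alone, so its p is no separate support for a rise. For a bound, isotype arrays were set at the lowest signal of any probe well above background on each. Where the probe's own value was higher, that value was used. With that floor, this probe read at least 8.98-fold higher in anti-DLL4 DN cells. Its mean level there was -2.52, against a bound of -5.69 and a measured mean of -6.81 in isotype DN cells. A higher floor would give a smaller fold.

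The second Dll4 probe, A_51_P384398, read -2.59, -4.51 and -2.77 in anti-DLL4 DN cells, against -4.82, -5.37 and -7.62 in isotype DN cells. The groups did not overlap, and the relative difference of 3.29 ± 0.86 missed the threshold (adjusted p = 0.0872). The third, A_51_P384402, gave -0.07 ± 0.73 (adjusted p = 0.525). On isotype replicates 2 and 3 the second probe was not well above background, so it met the filter of 2 arrays only with the anti-DLL4 arrays. On the shared slide the relative differences were 5.89, 1.23 and -1.09 for A_66_P101847, A_51_P384398 and A_51_P384402, and the first is no measured size, since that isotype spot was not well above background.

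Jag1, a Jagged-family ligand, had levels of -2.81, -0.81 and -1.91 in anti-DLL4 DN cells, against -5.71, -4.41 and -3.92 in isotype DN cells. The groups did not overlap, and the relative difference of 3.48 ± 1.27 did not pass (adjusted p = 0.157). The spot was not well above background on isotype replicate 1. Jag2, its paralog, read -5.21, 1.16 and -4.12 in anti-DLL4 DN cells, against -7.15, -4.01 and -5.57 in isotype DN cells with A_51_P451338, and the difference of 3.49 ± 2.43 was within the spread (adjusted p = 0.441).

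These calls changed with the processing. Over the other ways of processing and the fits without arrays, the Notch1 call was lost in 18 of 28 settings. Those of Notch3 were lost in 6 of 28 (A_51_P220162) and 7 of 29 (A_51_P220163). Those of Dll1 were lost in 5 of 29 (A_51_P306017) and 9 of 27 (A_66_P138893), and that of Dll4 in 5 of 28. The split of higher and lower member calls was 3 and 3, and it was 4 and 3 with quantile normalization, 2 and 3 when arrays were scaled to probes above background everywhere, 4 and 0 when arrays were centred on their median, and 0 and 1 with a normexp background correction, under which the relative differences of Dll1 (A_51_P306017) and Dll4 (A_66_P101847) shrank to 2.39 and 0.88 (adjusted p = 0.208 and 0.866). With the slide as fixed terms in the model 1 call was left, that of Dll4 A_66_P101847 (adjusted p = 0.0354). That probe entered the test through the anti-DLL4 arrays alone. Leaving out 1 array left 1 call without anti-DLL4 DN replicate 1 or isotype DN replicate 2, 2 calls without anti-DLL4 DN replicate 3, and 3 without isotype DN replicate 1. Without anti-DLL4 DN replicate 2, the brightest of the anti-DLL4 DN arrays, all 5 calls were on the lower side. Without the 2 dimmest isotype DN arrays, a choice made after seeing the data, none was left. The relative differences of Notch3, Notch1, Dll1 and Dll4 (A_51_P220162, A_52_P183088, A_51_P306017 and A_66_P101847) were then -3.12, -2.33, 5.07 and 5.18, with the single remaining isotype array assumed to vary like the other groups. On that array the Dll1 and Dll4 spots were not well above background, so the last 2 values are no measured sizes.

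Several cell-type markers moved alongside the members in DN cells. Of 8 B-cell markers, 7 rose and none fell with anti-DLL4, and the sum of their linear levels was 608 to 841 in anti-DLL4 DN arrays, against 38.7 to 45.9 in isotype DN arrays. Levels of different probes are not comparable, so all such sums here mostly follow the brightest probes of a list. For B cells these were Cd79b (8.19 to 8.69 in anti-DLL4 DN arrays) and Blnk (7.23 to 8.20). Of 7 T-lineage markers, 1 fell (Ptcra), with sums of 62.5 to 153 in anti-DLL4 arrays and 156 to 384 in isotype arrays. The dendritic-cell list had 2 of 8 higher (sums of 95.9 to 115 with anti-DLL4 and 12.5 to 33.3 with isotype) and the monocyte and macrophage list 2 of 7 higher (64.0 to 113 and 24.5 to 54.3). Of 9 endothelium and mesenchyme markers 1 was lower, Pdgfrb, with sums of 2.22 to 5.51 in anti-DLL4 arrays and 9.70 to 65.7 in isotype arrays. No thymic epithelium marker of 7 was called. The median of their relative differences was 0.84, while their sums were 4.82 to 9.01 in anti-DLL4 arrays and 13.5 to 17.5 on the 2 isotype arrays with every gene measured, so median and sum differ in direction. In isotype DN cells Siglech was the 1 dendritic-cell marker that no array had well above background. The part of these cell types in the values of the Notch receptors and ligands was not tested.

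In total thymocytes none of the 19 probes was called, where 1.16% of all 34897 tested probes were. At an unadjusted p under 0.05 limma gave 4 of the 19, all ligand probes, where 14.6% of all tested probes passed, so the members' share was near that of the array. Groups did not overlap for 2 member probes that were higher and 3 that were lower, where 4.68% and 8.97% of all probes were so separated. Jag1 read -3.04, -1.33 and -2.34 in anti-DLL4 thymocytes and -7.13, -6.03, -2.34 and -9.19 in isotype thymocytes. Isotype replicate 3 alone lay among the anti-DLL4 arrays. The relative difference was 4.36 ± 1.19 (adjusted p = 0.124), and without that array it was 5.71 ± 0.91 and passed (adjusted p = 0.0143). The spot was not well above background on isotype replicates 1 and 4, 2 of the 3 then left, so 5.71 is no measured size.

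Dll1 (A_51_P306017) read -1.67, -1.67 and -4.09 in anti-DLL4 thymocytes and -4.86, -5.00, -5.22 and -5.87 in isotype thymocytes. The groups did not overlap, but the third anti-DLL4 array stood close to the isotype arrays, and the relative difference of 3.18 ± 0.82 did not pass (adjusted p = 0.117). Dll4 A_66_P101847 read -4.16, -4.35 and -2.87 in anti-DLL4 thymocytes and -7.39, -4.59, -7.40 and -5.02 in isotype thymocytes, also without overlap (2.73 ± 0.85, adjusted p = 0.215). It was not well above background on isotype replicates 1 and 3. Of the other Dll4 probes, A_51_P384398 gave 2.08 ± 0.80 with overlapping groups (adjusted p = 0.358), and A_51_P384402 gave -0.02 ± 0.68 (adjusted p = 0.771). On the 3 slides that hold both antibodies, the relative differences were 4.34, 4.09 and 0.81 for Dll1 A_51_P306017, 4.39, 1.00 and 4.2 for Dll4 A_66_P101847, and 5.26, 5.46 and -0.33 for Jag1. The isotype spot was not well above background for Dll4 on the first and the third of these slides and for Jag1 on the first, so those values are no measured sizes.

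The receptors had negative differences in thymocytes that did not pass. Notch3 (A_51_P220162) read 2.14, 2.00 and 2.58 in anti-DLL4 thymocytes and 3.72, 3.67, 3.83 and 3.15 in isotype thymocytes. Every anti-DLL4 array lay below every isotype array, and the relative difference was -0.93 ± 0.65 (adjusted p = 0.359). The slides gave -0.42, -0.91 and -1.59. Notch1 (A_52_P183088) read -0.38, 0.43 and 0.61 in anti-DLL4 thymocytes and 2.38, 1.91, 1.06 and 0.68 in isotype thymocytes, a relative difference of -0.86 ± 0.61 (adjusted p = 0.349). Of the B-cell markers, 5 of 8 rose in thymocytes too, with sums of 93.8 to 361 in anti-DLL4 arrays and 22.6 to 48.0 in isotype arrays. Of the endothelium and mesenchyme markers 1 of 9 was lower (Pdgfrb), with sums of 2.27 to 20.4 in anti-DLL4 arrays and 2.46 to 8.09 in isotype arrays. The T-lineage, dendritic-cell, monocyte and thymic epithelium lists had no call. Their sums did not overlap for dendritic cells (82.1 to 94.1 in anti-DLL4 arrays, against 28.1 to 47.5 in isotype arrays) or thymic epithelium (24.9 to 38.0, against 15.6 to 23.6). No isotype thymocyte array had the B-cell marker Pax5 or the mesenchymal marker Pdgfra well above background. The part of these cells in the member values was not tested.

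In DN1 cells none of the 19 probes was called, where 0.109% of all 36640 tested probes were. The 2 with an unadjusted p under 0.05 in limma were both Dll4 probes, where 5.22% of all tested probes passed. Groups did not overlap for 3 member probes that were higher and 4 that were lower, where 8.58% and 9.56% of all probes were so separated. A_66_P101847 read -4.26, -1.93 and -2.39 in anti-DLL4 DN1 cells and -8.79 and -6.20 in isotype DN1 cells, the lower of which was not well above background. A_51_P384398 read -3.67, -2.18 and -1.93 in anti-DLL4 DN1 cells and -6.60 and -5.32 in isotype DN1 cells. Neither probe's groups overlapped, and the relative differences were 4.67 ± 1.01 (adjusted p = 0.129) and 3.40 ± 0.96 (adjusted p = 0.348). On the 2 shared slides they were 7.21 and 3.95, and 4.77 and 3.53, where 7.21 is set against the isotype spot that was not well above background. As A_66_P101847 was well above background on 1 isotype DN1 array, it met the filter of 2 arrays only with the anti-DLL4 arrays. Its p in DN1 cells is therefore no separate support for a rise, and 4.67 is no measured size. The third Dll4 probe, A_51_P384402, gave 0.82 ± 0.82.

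None of the other members passed either threshold. Dll1 (A_51_P306017) read -1.93, -0.23 and -3.55 in anti-DLL4 DN1 cells and -3.54 and -3.14 in isotype DN1 cells. Jag1 read -2.54, 0.06 and -2.35 in anti-DLL4 DN1 cells and -1.01 and -0.19 in isotype DN1 cells, a relative difference of -0.98 ± 1.42 (adjusted p = 1). Its group mean in isotype DN1 cells was the highest of the 6 groups. Notch1 (A_52_P183088) read -1.90, 0.02 and -0.82 in anti-DLL4 DN1 cells and 0.25 and 0.25 in isotype DN1 cells, and Notch3 (A_51_P220162) read -0.09, 1.22 and -1.18 in anti-DLL4 DN1 cells and 1.15 and 1.21 in isotype DN1 cells. The standard errors of the member probes in DN1 cells ran from 0.73 to 2.76, with 2 isotype arrays. No marker of any cell-type list was called in DN1 cells. The sums did not overlap for T-lineage markers (27.1 to 52.3 in anti-DLL4 arrays, against 114 to 173 in isotype arrays) or for monocytes and macrophages (47.8 to 69.4, against 126 to 169), and their part in the member values was not tested.

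**Figure D2:**
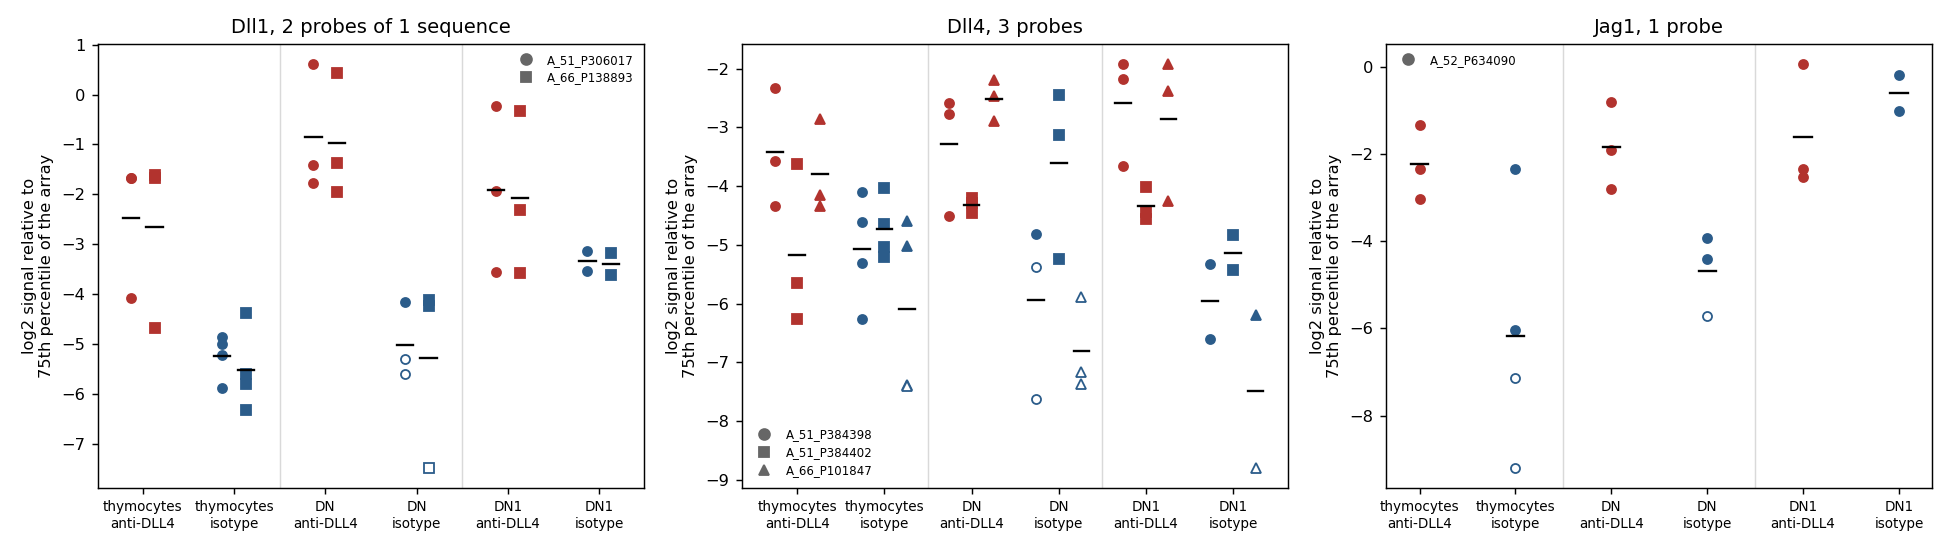
Levels of the Dll1, Dll4 and Jag1 probes on each array (log2 signal relative to the array's 75th percentile), by population and antibody, anti-DLL4 in red and isotype in blue. Open markers are spots not well above background, marker shape gives the probe and black bars are group means. For Dll4, A_66_P101847 and A_51_P384398 are higher with anti-DLL4 in group mean in each population while A_51_P384402 stays between -6.26 and -2.45, and Jag1 is high in isotype DN1 cells.

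**Figure D3:**
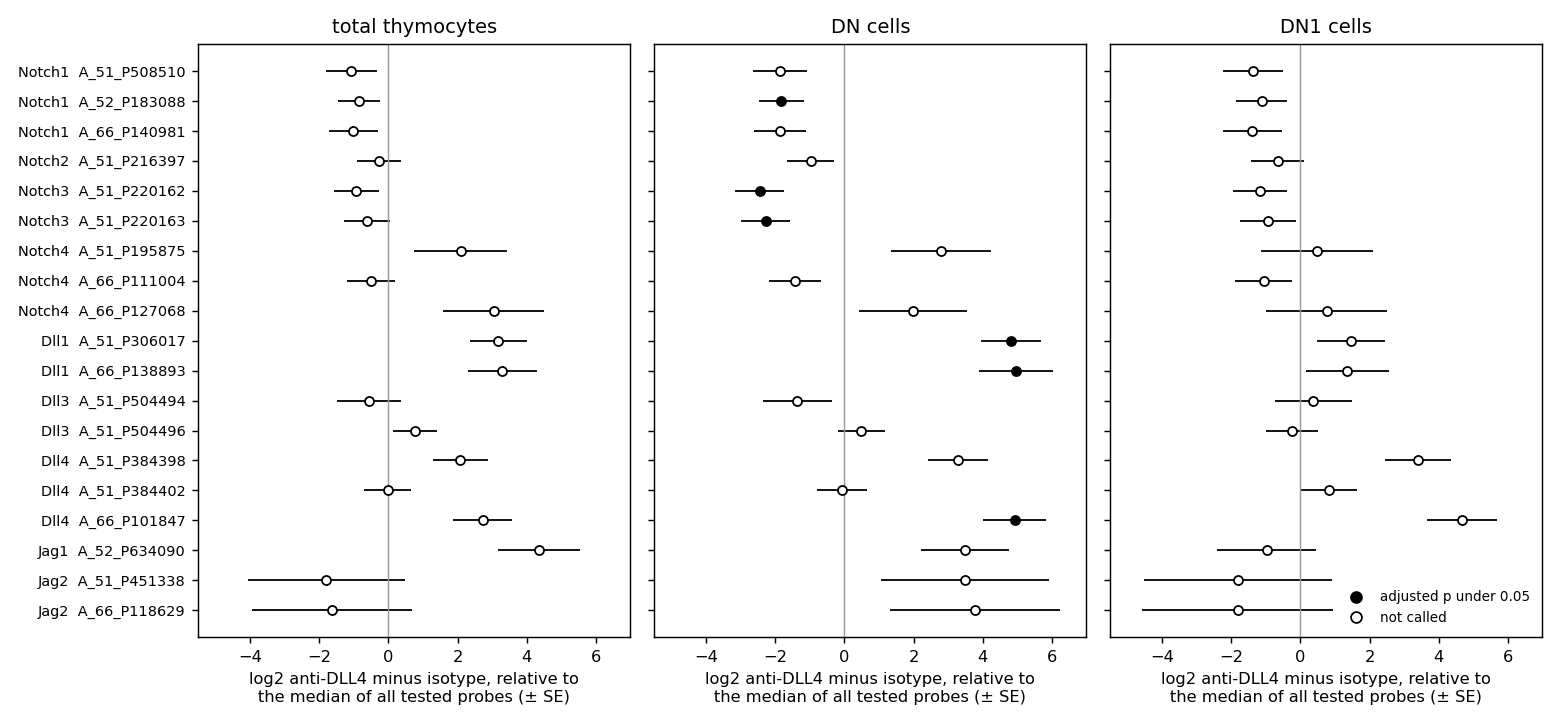
Difference between anti-DLL4 and isotype for all 19 member probes in thymocytes, DN cells and DN1 cells (log2, relative to the median of all tested probes, bars are ± SE from limma). Filled points passed an adjusted p under 0.05, which tests the difference before that median is subtracted. The 6 called probes are all in DN cells, with Notch1 and Notch3 below 0 and Dll1 and Dll4 above it.

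The effect of the antibody was not shown to differ between populations for any member. When the effect in DN cells was set against that in thymocytes, the effect in DN1 cells against that in thymocytes, and the effect in DN1 cells against that in DN cells, 0 of 19 probes were called in limma, where 0.0107%, 0.0894% and 0.137% of all tested probes were. At an unadjusted p under 0.05 there were 0, 1 and 0, against 8.47%, 6.83% and 11.6% of all tested probes. The 1 was Jag1, whose effect in DN1 cells minus that in thymocytes was -5.33 ± 1.85 (adjusted p = 0.573). For Dll1 A_51_P306017 the effect in DN1 cells minus that in DN cells was -3.34 ± 1.31 (adjusted p = 0.433).

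Between populations, Notch3 was the member with calls. In isotype samples it was lower in DN1 than in DN cells with both probes, by relative differences of -3.39 ± 0.78 and -3.50 ± 0.80 (adjusted p = 0.0193 and 0.0184), and these were 2 calls among 18 tested member probes, where 1.1% of all 36040 tested probes were called, and 0.178% were called lower. At an unadjusted p under 0.05 there were 7 of 18, where 19% of all tested probes passed. Cell-type markers moved in that comparison too: 4 of 8 B-cell markers were higher in isotype DN1 cells, with sums of 230 to 396 in isotype DN1 arrays, against 38.7 to 45.9 in isotype DN arrays. So were 1 of 8 dendritic-cell markers (52.8 to 91.9 in isotype DN1 arrays, against 12.5 to 33.3 in isotype DN arrays) and 1 of 7 monocyte and macrophage markers (126 to 169, against 24.5 to 54.3), and their part in the Notch3 values was not tested. Both were lost with arrays centred on their median, with the slide as a block, without either isotype DN1 array and without isotype DN replicate 2. The 2 calls were lost also without the 2 dimmest isotype DN arrays. The isotype DN arrays are also the controls of the antibody comparison in DN cells, so those Notch3 calls rest on the same 3 arrays. In anti-DLL4 samples the contrast of DN1 with DN cells gave -2.14 ± 0.70 and -2.20 ± 0.71 (adjusted p = 0.991 for each), in a comparison with no call among all 35160 tested probes (0%) and 1522 at an unadjusted p under 0.05 (4.33%, and 2 of 19 member probes). For isotype DN cells against isotype thymocytes no member probe was called (1.13% of all probes were), 3 had an unadjusted p under 0.05 in limma (19.8% of all probes did), and Notch3 gave 1.28 ± 0.65 and 1.57 ± 0.67 (adjusted p = 0.188 and 0.148). No member was called in anti-DLL4 DN cells against anti-DLL4 thymocytes (0.28% of all probes) or in anti-DLL4 DN1 cells against anti-DLL4 thymocytes (0.554%), where limma gave 0 and 4 member probes at an unadjusted p under 0.05, against 7.42% and 10.7% of all tested probes.

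Jag1 was near the threshold in isotype DN1 cells against isotype thymocytes. No member was called there (1.2% of all 35249 tested probes were), 5 of 19 had an unadjusted p under 0.05 in limma, where 13.1% of all tested probes did, and Jag1 had a relative difference of 5.91 ± 1.35 (adjusted p = 0.0597). It passed when arrays were scaled to probes above background everywhere (adjusted p = 0.0368), when probes had to be above background on at least 9 arrays (0.0498), and without isotype thymocyte replicate 3, where the difference was 7.26 (adjusted p = 0.00702). As isotype thymocyte replicates 1 and 4 had Jag1 not well above background, neither 5.91 nor 7.26 is a measured size. Set against isotype DN cells, isotype DN1 cells had 4.74 ± 1.42 more Jag1 (adjusted p = 0.183).

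The group means gave these orders, from high to low. Notch3 (A_51_P220162) ran from isotype DN cells (5.23 ± 0.75, SD) over isotype thymocytes (3.59 ± 0.30), anti-DLL4 thymocytes (2.24 ± 0.30), anti-DLL4 DN cells (2.13 ± 1.37) and isotype DN1 cells (1.18 ± 0.05) to anti-DLL4 DN1 cells (-0.02 ± 1.20). The steps from isotype DN cells to isotype thymocytes and from there to anti-DLL4 thymocytes exceeded the larger SD without overlap, and the last 4 groups overlapped from neighbour to neighbour. With A_51_P220163 the first of these steps held as well (1.93, larger SD 0.85), but isotype thymocytes overlapped the next group, anti-DLL4 DN cells. There, the step from anti-DLL4 thymocytes to isotype DN1 cells exceeded the spread (1.19, larger SD 0.28). Notch1 (A_52_P183088) was highest in isotype DN cells (2.35 ± 0.36) and isotype thymocytes (1.51 ± 0.78), which overlapped, and only the step from isotype thymocytes to isotype DN1 cells (0.25) went beyond the spread. With the other Notch1 probes no step between neighbouring groups did. Dll1 (A_51_P306017) was highest in the 3 anti-DLL4 groups, with DN cells at -0.86 ± 1.29, DN1 cells at -1.91 ± 1.66 and thymocytes at -2.47 ± 1.40. It was lower in isotype DN1 cells at -3.33 ± 0.28, isotype DN cells at -5.02 ± 0.76 and isotype thymocytes at -5.24 ± 0.45, and only the step between isotype DN1 and isotype DN cells exceeded the spread. With the second probe of that sequence this step was 1.88, against a larger SD of 1.9, so it did not exceed the spread. On isotype DN replicates 2 and 3 A_51_P306017 was not well above background. Dll4 (A_66_P101847) likewise had the anti-DLL4 groups on top, at -2.52 ± 0.35 in DN cells, -2.86 ± 1.24 in DN1 cells and -3.79 ± 0.81 in thymocytes, and the step from there to isotype thymocytes (-6.10 ± 1.5) exceeded the spread. A_51_P384398 also had the anti-DLL4 groups on top. A_51_P384402 did not: it was highest in isotype DN cells (-3.61 ± 1.45) and lowest in anti-DLL4 thymocytes (-5.18 ± 1.38).

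The remaining members gave little to compare. Notch2, which is needed for marginal-zone B cells in the spleen, was well above background on all 18 arrays, and its processed signal ran from 45.0 to 282, a 6.27-fold range, while array strength ranged 16.5-fold. Its level was lower on brighter arrays (Pearson's r = -0.78 and Spearman's rho = -0.78 over 18 arrays that share the scaling, as a description), with means of -4.17 ± 0.16 in anti-DLL4 DN cells, against -2.55 ± 1.28 in isotype DN cells (relative difference -0.97 ± 0.68, adjusted p = 0.139). Notch4, an endothelial receptor, was well above background on 14 and 12 arrays with the 2 probes of equal sequence. The third, A_66_P111004, was above background on all 18 arrays, with a signal range of 8.77-fold and an r of -0.72 with array strength. In DN cells the 3 Notch4 probes gave 2.80 ± 1.45, -1.42 ± 0.75 and 1.99 ± 1.57 (A_51_P195875, A_66_P111004 and A_66_P127068), with adjusted p of 0.326, 0.108 and 0.582, so the sign depended on the probe.

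Dll3, a ligand that in mouse acts inside the cell and does not activate Notch receptors, was read by both of its overlapping probes on all 18 arrays. The levels of the 2 probes correlated at r = 0.39 over 18 arrays, against r = 0.99 for the Notch3 pair that also overlaps. The signal of A_51_P504494 ran from 37.6 to 279, a 7.43-fold range, and its level followed array strength with r = -0.87. That of A_51_P504496 ran from 739 to 6050, an 8.19-fold range (r = -0.62). In DN cells they gave relative differences of -1.36 ± 0.99 and 0.49 ± 0.68 (adjusted p = 0.191 and 0.896).

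Dll4 A_51_P384402 had a signal of 17.9 to 187, a 10.4-fold range, and r = -0.75 with array strength, while the other Dll4 probes had r of 0.18 and 0.16 and correlated with each other at 0.84. Jag2 ranged by 10.8 log2 units over the 18 arrays, the widest of all member probes but its twin, and its 2 probes of equal sequence followed each other with r = 1.00 and a median absolute difference of 0.17. In isotype thymocytes Jag2 (A_51_P451338) read 0.35, -3.93, -9.64 and 0.81, and in anti-DLL4 thymocytes it read -8.68, -2.65 and -4.63, so arrays of 1 group differed by more than any group means did. The second probe of that sequence gave the same spread, at 0.50, -4.16, -9.52 and 1.16 in isotype thymocytes.

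**Figure D4:**
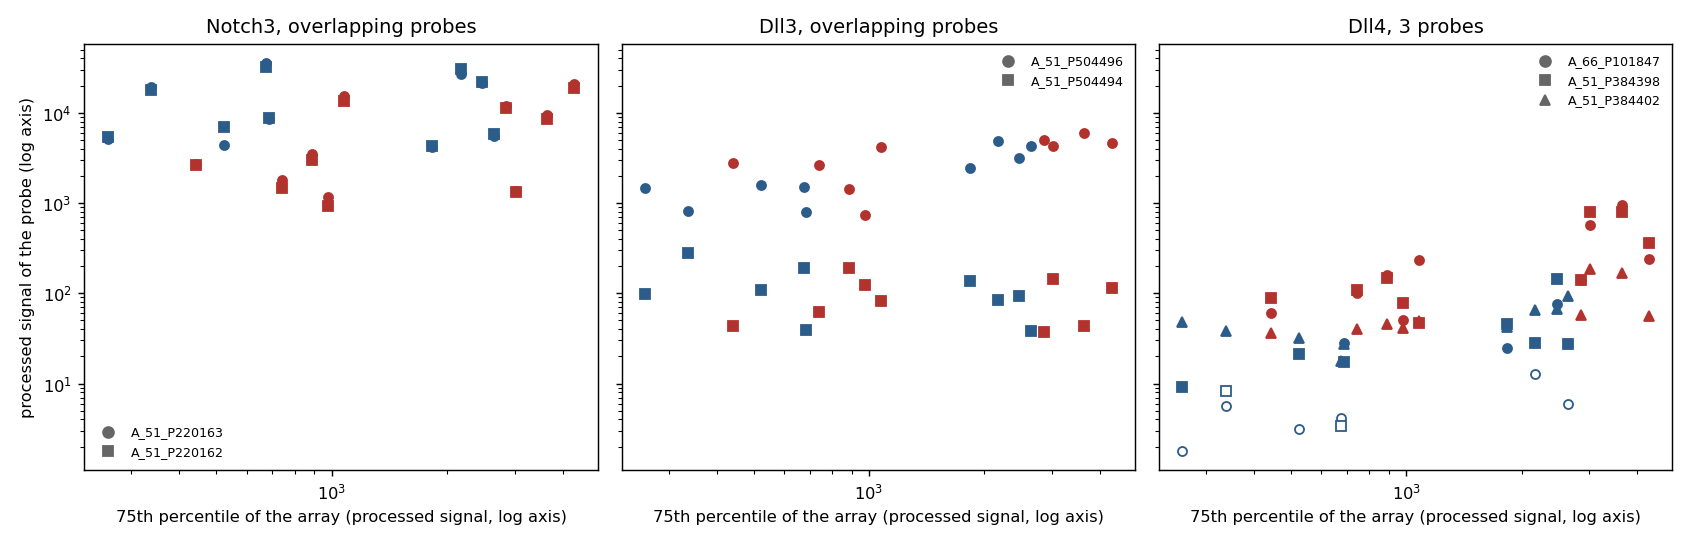
Processed signal of the Notch3, Dll3 and Dll4 probes on each array against the array's 75th percentile (both log axes), anti-DLL4 in red and isotype in blue, open where not well above background. The Notch3 probes lie on top of each other, while Dll3 A_51_P504494 (37.6 to 279) and Dll4 A_51_P384402 (17.9 to 187) span 7.43-fold and 10.4-fold while array strength spans 16.5-fold.

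Other genes of the pathway were read by their brightest probe, 55 genes in all. In DN cells 4 of the 51 tested were called, 1 higher and 3 lower, where 3.72% of all tested probes were called (2.33% higher, 1.39% lower). There, gamma-secretase and the other receptor proteases had 1 of 9 tested genes higher, Psen2 (2.84 ± 0.57, adjusted p = 0.0456), and none lower. Psen2 encodes a catalytic subunit of gamma-secretase. Of 11 nuclear complex genes 1 was lower, the Mastermind gene Maml3 (-2.52 ± 0.75, adjusted p = 0.0301), while Rbpj gave 0.90 ± 0.59 (adjusted p = 0.795). Of 12 tested target genes 2 were lower, Ptcra, which encodes the pre-T-cell receptor alpha chain (-2.78 ± 0.90, adjusted p = 0.0456), and Tcf7, a T-lineage transcription factor (-2.10 ± 0.60, adjusted p = 0.0196). No gene was called among 4 of receptor glycosylation, 4 ubiquitin ligases that act on ligands, 10 of receptor turnover and 3 other ligands. The medians of the relative differences were 0.06 for the target genes, 1.15 for the proteases and 0.33 for the nuclear complex, against 0 for all tested probes by construction.

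In thymocytes 1 of 53 tested genes of these lists was called (1.16% of all probes were), Nedd4, a ubiquitin ligase of receptor turnover (-1.46 ± 0.43, adjusted p = 0.0441), and in DN1 cells none was. Between populations, Dlk1, a Delta-like protein without the domain that activates receptors, was higher in isotype DN cells than in isotype thymocytes (3.54 ± 0.65, adjusted p = 0.0114) and in isotype DN1 cells than in isotype thymocytes (4.40 ± 0.74, adjusted p = 0.0131). Tcf7 was lower in anti-DLL4 DN1 cells than in anti-DLL4 thymocytes (-3.08 ± 0.60, adjusted p = 0.0376).

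Across the 18 arrays, the genes most like each member were found by Pearson's r among 26907 probes, which share arrays and scaling, so that r is a description. Notch1 (A_66_P140981) was most like Thy1 (r = 0.956, rho = 0.94), Ssbp4 (0.951, 0.944) and Macrod1 (0.939, 0.928). Notch3 (A_51_P220163) was most like Fkbp5 (r = 0.915, rho = 0.884), Ptcra (0.914, 0.905) and Uck2 (0.898, 0.905). Dll1 was most like Ncr1 (r = 0.899, rho = 0.872), Gzmc (0.867, 0.837) and Itprid2 (0.866, 0.82). Dll4 (A_51_P384398) was most like Etnk2 (r = 0.88, rho = 0.88), Cecr2 and Igsf5, and Jag1 was most like Cybb (r = 0.912, rho = 0.872). For Notch2 and for Notch4 A_66_P111004, Fat1 was among the nearest for both (r = 0.971 and 0.958).

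Promoter windows of RefSeq (GRCm38.p6, 250 bases before to 50 after the start) were searched on both strands for TGGGAA, the core of the RBPJ motif. All 9 member genes had windows, 10 in all, and 0 of them held these letters, which were found in 25.6% of 32851 windows. This says only that the letters are not in these windows.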

How the data were processed

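Expression was measured in 18 samples in 6 groups. Per the file headers, the deposited Cy3 intensity of each spot comes from Agilent Feature Extraction 9.5.3.1, with background subtracted and detrending within the array, and no normalization between arrays. The other deposited columns were flags of spots (0 or 1) for signal well above background, saturation and outliers. A deposited table of a ratio per probe was an alternative, with centring not stated. Each array's log2 signal was scaled here to its own 75th percentile. Control spots and outlier spots were left out, so that 1 isotype DN array lacks 1 thymic epithelium marker. Probes well above background on at least 2 of 18 arrays (38931) entered 1 limma model (version 3.58.1, R 4.3.3) with 6 group means, two-sided p and Benjamini-Hochberg adjustment over all probes tested in a comparison. For a test, 2 arrays of the groups involved had to be well above background. Genes of the other lists were named if called, at most 4 per list and comparison. The members, lists and tests were chosen with earlier results of these data known. Symbols came from RefSeq GRCm38.p6 by accession (26207 probes), symbol (7276) or older symbol (3072). The fit was tested on simulated data. Alternatives were quantile normalization, other scalings, normexp (offset 50), the filters, 1 probe per gene, the deposited ratios, slide and replicate blocks, and leaving out each array. Replicate numbers were not taken as pairs. Correlations of deviations between samples of equal number ran from -0.22 to 0.27, which groups of 2 to 4 arrays cannot settle. In thymocytes, replicates 1, 2 and 3 of both antibodies shared a slide, and the main model had no slide term. The number of arrays limits the precision.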

Additional observations from a re-analysis of the deposited data

Results flagged for a closer look

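In isotype thymocytes, 1 array stood apart for the Notch4 probe A_66_P127068: replicate 3 read -4.19, against -7.96, -7.77 and -7.75 on the other 3 arrays, and the gap to the nearest array was 0.943 of the whole range. It was also the 1 array of the 4 on which this spot was well above background, and the Notch4 probe of equal sequence, A_51_P195875, read -4.11 there and -6.41, -5.58 and -6.56 on the others. That array also held the Jag1 level nearest to the anti-DLL4 arrays. Of groups of 4 arrays tested in this way, chance picks out about 1 in 20.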

How the results depend on the processing

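No called difference of a member probe changed direction under any of 10 other ways of processing, the 18 fits without 1 array, or the fit without the 2 dimmest isotype DN arrays, which was chosen after seeing the data. Of 6188 member values that passed no threshold, 247 changed sign. In DN cells, the 6 called member probes became 7 with quantile normalization, 5 without a filter on dim probes and 5 in the deposited ratio table, but 1 with normexp background, 2 with 1 probe per gene (9 probes tested in place of 19), 1 with the slide as a block, 1 to 8 without 1 array, and 0 without the 2 dimmest isotype DN arrays, where all calls over the array went to 185 from 1273. Without isotype DN replicate 3 there were 7983 calls over the array. In isotype DN1 against isotype DN cells, the 2 calls became 1 with 1 probe per gene, 0 with arrays centred on their median, 0 with the slide as a block, 0 to 2 without 1 array, and 0 without the 2 dimmest isotype DN arrays. In isotype DN1 cells against isotype thymocytes, no call became 1 with arrays scaled to probes above background on all arrays, 1 with probes above background on at least 9 arrays, and 0 to 1 without 1 array. In thymocytes no call became 0 to 1 without 1 array, the 1 being Jag1 without isotype replicate 3. With the replicate number as a block, 5 of the 6 calls in DN cells were left; the samples share only a number, so this is no pairing. The cause of these changes was not tested, except that fits without an array hold fewer samples. Signal over background limits Dll1, Dll4, Jag1, Jag2 and Notch4 in isotype samples, where some spots were not well above background.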
